A study of Caenorhabditis elegans with 2 samples.

Results

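The sites described here are ChIP-seq peaks of the transcription factor EGL-43 in whole C. elegans larvae that lie in the upstream promoter of 1 protein-coding gene. They were taken from the authors' series-level thresholded list by position alone. The nearest protein-coding transcription start site (TSS) had to lie 1 to 1000 bp downstream of the peak summit on the gene's strand. Summits between divergent TSSs at most 2000 bp apart were left out, as were summits within 200 bp of a tRNA, snoRNA or snRNA gene. This gave 647 of 3146 series peaks (20.6%, 95% Wilson interval 19.2 to 22.01). They stood upstream of 608 of the 19973 protein-coding genes (3.04%). Positions are on the WBcel235 assembly with Ensembl gene models, and the letters of the genome were read from the RefSeq copy of that assembly.

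Both samples came from strain RW12181, in which CRISPR placed a TY1, EGFP and 3xFLAG tag in the egl-43 gene itself, so the tagged protein was made under the gene's own control. Worms were bleached, starved as L1 larvae and collected as L4 larvae at 49 hours, and whole animals were used, so sites from different tissues are pooled. Chromatin was sheared by sonication and precipitated with an antibody to GFP. The labels give the samples as biological replicates 1 and 2, and there is no second group. No untagged strain or input library was used here, so binding of EGL-43 at any site cannot be told apart from background of the assay. The signal of a peak is the authors' own value for that peak. The number of reads behind it is unknown, since the lists hold no counts. Intervals below cover counting error only, and no test between conditions is possible.

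EGL-43 is a zinc finger protein related to mammalian EVI1, known in worms for its part in anchor cell invasion and in the migration of the HSN neurons. A promoter is the stretch before a gene where transcription factors and RNA polymerase assemble. Many C. elegans messages are trans-spliced to a short leader RNA, so an annotated start often marks the splice position and the true start lies further upstream. Downstream genes of an operon share the promoter of the first gene and may have none of their own.

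The sequences under the strongest upstream sites are shown first, because they are short stretches in which shared words can be seen directly. They are the strongest 10 sites whose 121 bp window around the summit overlaps no annotated exon, with the sites of 1 chromosome not shown. Each is written 5′ to 3′ on the strand of its gene, from WBcel235: rpl-3 at chrIII:3867511-3867631 (plus strand), nspc-17 at chrX:14525850-14525970 (minus strand), mtcu-2 at chrII:10033620-10033740 (minus strand), rpl-35 at chrIII:7854633-7854753 (plus strand), eel-1 at chrIV:3050414-3050534 (minus strand), serp-1.1 at chrX:15841211-15841331 (plus strand), mog-4 at chrII:14561793-14561913 (minus strand), cbp-1 at chrIII:9765568-9765688 (plus strand), cnk-1 at chrIII:10270878-10270998 (plus strand) and cox-5A at chrIII:12905143-12905263 (plus strand). Capitals mark matches, on either strand, to the word CTGCGTC, its partner GAGACGC, the word AAACACGC, the word AGTGTGCG or the word ACCGTA. Of these, CTGCGTC was on the list of words, itself chosen with earlier results of these data known. The others were chosen after the words at the summits had been counted.
rpl-3: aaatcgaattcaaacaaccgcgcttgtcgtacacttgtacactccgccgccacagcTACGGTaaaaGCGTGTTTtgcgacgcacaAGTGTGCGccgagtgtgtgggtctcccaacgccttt
nspc-17: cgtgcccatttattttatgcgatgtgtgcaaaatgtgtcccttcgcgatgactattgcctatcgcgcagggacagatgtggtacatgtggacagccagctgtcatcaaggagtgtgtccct
mtcu-2: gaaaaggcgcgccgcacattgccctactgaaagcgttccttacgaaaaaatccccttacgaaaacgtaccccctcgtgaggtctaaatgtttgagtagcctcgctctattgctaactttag
rpl-35: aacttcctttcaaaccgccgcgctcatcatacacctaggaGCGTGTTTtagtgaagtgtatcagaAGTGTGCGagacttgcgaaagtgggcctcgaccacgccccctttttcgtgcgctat
eel-1: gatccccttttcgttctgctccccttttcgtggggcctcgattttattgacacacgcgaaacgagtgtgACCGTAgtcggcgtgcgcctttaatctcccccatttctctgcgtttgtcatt
serp-1.1: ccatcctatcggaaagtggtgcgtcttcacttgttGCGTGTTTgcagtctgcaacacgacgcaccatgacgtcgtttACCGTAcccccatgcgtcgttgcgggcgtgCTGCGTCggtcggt
mog-4: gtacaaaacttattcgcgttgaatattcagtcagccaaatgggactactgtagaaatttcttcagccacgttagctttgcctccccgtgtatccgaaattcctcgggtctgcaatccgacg
cbp-1: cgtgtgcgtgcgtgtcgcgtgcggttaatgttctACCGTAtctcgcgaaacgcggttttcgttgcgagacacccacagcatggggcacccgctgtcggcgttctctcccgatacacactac
cnk-1: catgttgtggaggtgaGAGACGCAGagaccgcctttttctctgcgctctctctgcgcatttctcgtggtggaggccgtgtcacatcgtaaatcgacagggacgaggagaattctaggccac
cox-5A: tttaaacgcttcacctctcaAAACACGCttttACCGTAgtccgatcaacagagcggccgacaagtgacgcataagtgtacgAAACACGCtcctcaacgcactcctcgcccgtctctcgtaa
In 7 of the 10 windows at least 1 word was found, and in those of nspc-17, mtcu-2 and mog-4 there was none. The windows of rpl-3 and cox-5A held the same run of 21 bp, cTACGGTaaaaGCGTGTTTtg, on opposite strands relative to their genes. That run occurs 2 times in the 6 nuclear chromosomes, at these sites. The next longest run shared by any of the 45 pairs of windows was 12 bp, aggaGCGTGTTT, in rpl-35 and cox-5A, which occurs 7 times in the genome. In cnk-1 the words GAGACGC and CTGCGTC overlap, since the first and the reverse complement of the second share letters. The CTGCGTC of serp-1.1 lies more than 50 bp from the summit and is not counted in the shares given later.

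The strongest upstream site stood before rpl-3, a gene of the large ribosomal subunit. This site had a series signal of 1041, ranked 3 among all series peaks and lay 283 bp before the TSS, at chrIII:3867432-3867710. Replicate 1 gave it 499 and replicate 2 gave it 554. The site before nspc-17, of a nematode-specific peptide family, had a signal of 710 (372 in replicate 1 and 334 in replicate 2). Next was mtcu-2, a mitochondrial tRNA modification gene, with 646 (362 and 283 in replicates 1 and 2). Its summit lies in an intron of another gene, 467 bp before its own TSS. The second ribosomal gene among the strongest, rpl-35, had a signal of 585 at 441 bp.

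Other sites among the strongest 15 belonged to genes with varied roles. For rpa-2, of replication protein A, the signal was 583 at 660 bp. For eel-1, a HECT ubiquitin ligase, it was 563 at 370 bp, and for mog-4, a helicase of germline sex determination, 528 at 254 bp. The site of cbp-1, a histone acetyltransferase, lay further out, at 881 bp, with a signal of 494. For cnk-1, a scaffold of Ras signalling, the signal was 468 at 319 bp. The site of cox-5A, a subunit of cytochrome c oxidase, had 461 at 288 bp. The remaining sites of the 15 were those of serp-1.1 (555), T13C5.6 (522), T28B11.1 (463), dhs-8 (463) and pqn-51 (457). All 15 had peaks in both replicates, with replicate signals from 206 to 554. Of the 15, 11 summits lay in no annotated gene, and those of T13C5.6 and dhs-8 lay in a noncoding gene. The T28B11.1 summit lay in an intron of T28B11.1, before a later TSS.

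The 647 sites covered a wide range of signal, from 5.15 to 1041, with a median of 140.1 (95% interval 135.8 to 145.9) and quartiles of 121 and 190. A signal above 200 was seen at 141 sites, above 300 at 46 and above 400 at 18. All other series peaks had a median of 139.5 (137.7 to 141.3), inside the interval of the upstream sites. The upstream sites stood between their neighbours in the promoter: the median was 168 (159 to 187) at the 194 sites between divergent genes and 129 (126 to 132) at the 397 sites 0 to 500 bp downstream of a TSS. These 3 intervals do not overlap. Sites within 200 bp of a small RNA gene had a median of 247 (229.6 to 265). Upstream sites made up 16.0% (10.1 to 24.4) of the 100 strongest series peaks and 20.5% (18.3 to 22.9) of those ranked 2001 to 3146.

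**Figure D1:**
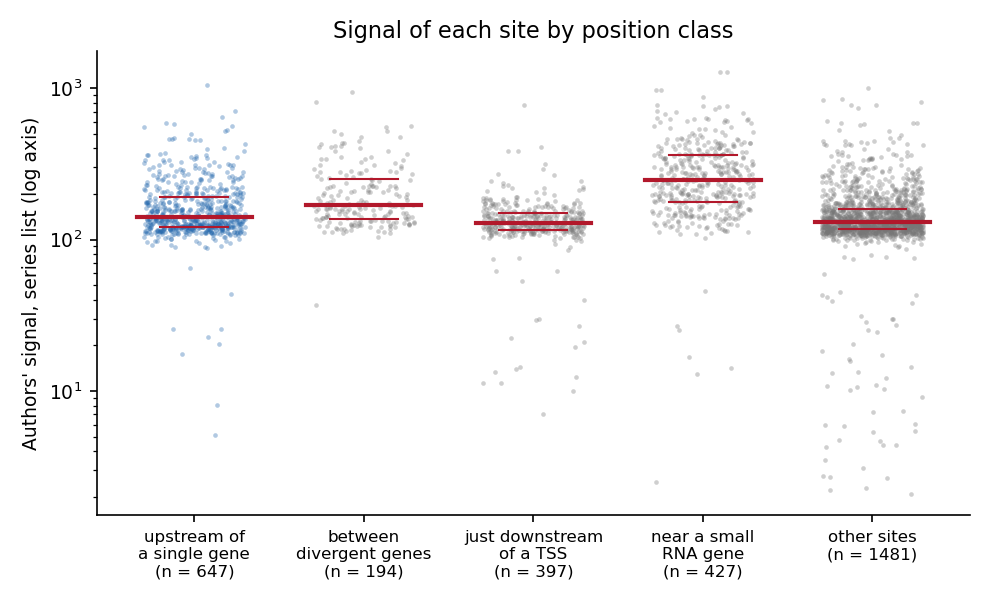
The authors' signal of every series peak (vertical, log axis), 1 point a peak, by position class, with upstream sites at the left. Thick red lines are medians and thin red lines quartiles; the upstream sites have a median of 140.1, between 168 for divergent pairs and 129 just downstream of a TSS.

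A few sites fell far below the rest. The 7 sites under a signal of 40 were those of Y50D4A.6, myo-6, C14B9.2, dus-2, rei-1, nsun-4 and tppp-1, from 25.7 down to 5.15. The interval of each overlapped another peak of the series list, with its summit 199 to 210 bp away. In all, 27 upstream sites (4.17%) overlapped another series peak, and their summits lay a median of 203 bp from the nearest one. With overlapping upstream peaks counted once, by the strongest, 637 sites in 608 genes remained, with a median signal of 140.3. Peak width followed the signal: 558 sites (86.2%) were exactly 330 bp wide with a median signal of 133, while the 88 narrower sites had a median of 302.

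The replicates were compared through their own lists. A thresholded replicate 1 peak overlapped 280 of the 647 upstream sites (43.3%, 39.5 to 47.1), against 42.5% of all series peaks. For replicate 2 it was 308 sites (47.6%, 43.8 to 51.5), against 47.1%. Both replicate lists held 200 sites (30.9%, 27.5 to 34.6), against 30.6% of all series peaks, so the upstream sites were near the background in each. The replicate 1 list alone held 80 sites and the replicate 2 list alone 108, against 375 and 521 of the 3146 series peaks. In neither thresholded list were 259 sites (40.03%), near the 40.9% of all series peaks. These 259 reached the threshold when the replicates were combined. Among the sites between divergent genes, 44.3% (37.5 to 51.4) were in both lists, and among those just downstream of a TSS 13.6% (10.6 to 17.3).

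Whether both replicates held a site depended on its strength. Of the strongest 216 sites, with signals of 167 to 1041, 82.9% were in both lists. Of the middle 215 sites it was 8.37% and of the weakest 216 sites 1.39%. Part of this follows from the lists, since the series signal and the replicate calls come from the same libraries. In the longer ranked lists, 631 sites had a peak in both replicates. Across them the replicate signals had a Spearman correlation of 0.527, and Pearson's r of their log2 values was 0.604; the points share the libraries and the selection by series threshold. The Spearman correlation was 0.706 over 185 sites between divergent genes and 0.151 over 392 sites just downstream of a TSS. These classes also differ in their range of signal, with quartiles of 136 and 250 at divergent sites and 116 and 149 at downstream ones. Whether the range accounts for the difference in correlation was not tested. Among the 200 upstream sites in both thresholded lists the Spearman correlation was 0.774, and 197 of them (98.5%) had replicate signals within 2-fold of each other.

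**Figure D2:**
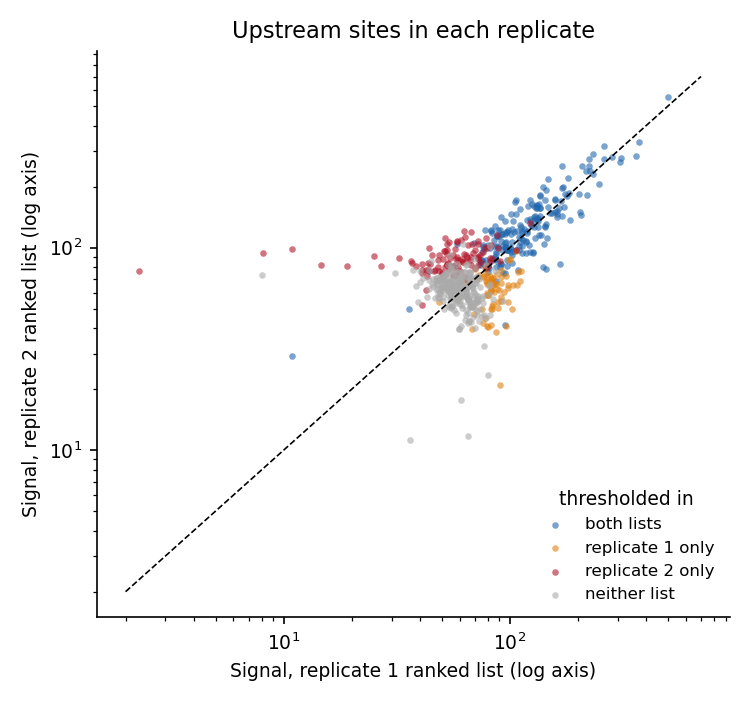
Signal of the upstream sites in the ranked list of replicate 1 (horizontal, log axis) and of replicate 2 (vertical, log axis), 1 point a site with a peak in both ranked lists. Colour gives the thresholded lists that hold the site, and the dashed line marks equal signal; sites in both lists run along the line, and most sites in neither list lie at lower signals in both replicates.

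Replicate values were taken from the overlapping peak of each replicate's own ranked list, so a weak site beside a stronger one may carry the value of its neighbour. Ratios are given for the 200 sites in both thresholded lists. Such cases can remain among them, since the call and the value can come from different overlapping peaks. Among the 200 sites, kel-3 had a signal of 94.8 in replicate 1 and 41.5 in replicate 2, a log2 ratio of 1.19. Its series signal was 174. The site of F13C5.2 had 167 in replicate 1 and 83.2 in replicate 2, and that of pdi-2, a protein disulfide isomerase, 145 and 78.03. In the other direction, 1 site of pbrm-1 had 10.9 in replicate 1 and 29.3 in replicate 2 (log2 ratio -1.42), but it lies beside other sites of the gene, 413 bp from the TSS against 629 and 835 bp. The rgs-6 site had 58.2 and 104, and the lin-59 site 107 and 172, in replicates 1 and 2. That of rgs-6, at 198 bp, also lies beside another site of its gene, at 399 bp. The other extremes were zfp-3 and Y62F5A.12 (log2 ratios 0.81 and 0.50), and cmk-1 and gid-2 (-0.80 and -0.67).

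The sites lay throughout the 1000 bp, with more of them near the gene. The median distance from summit to TSS was 386 bp (359 to 408), with quartiles of 181 and 660.5. Within 200 bp there were 179 sites (27.7%) and within 500 bp 409 (63.2%). Since not every base within 1000 bp of a TSS meets the rule, the number of sites was divided by the sequence that does. That sequence measured 16914912 bp, or 16.9% of the genome, and held 38.3 sites per Mb (exact Poisson interval 35.4 to 41.3), against 29.98 (28.8 to 31.2) in the rest of the genome. In bins of 100 bp the density was 43.5 (34.96 to 53.6) per Mb next to the TSS, 47.6 (38.1 to 58.9) at 301 to 400 bp, 27.8 (20.3 to 37.0) at 501 to 600 bp and 33.9 (24.9 to 45.1) at 901 to 1000 bp. The bins from 1 to 500 bp all stood at 39.6 or more and those beyond at 35.8 or less. The upstream stretch also held 20.3% of the replicate 1 thresholded summits and 19.9% of those of replicate 2, but 14.6% of the 65641 summits of the series ranked list, which includes weak peaks. Median signal varied little with distance, from 126 to 155 over the bins.

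**Figure D3:**
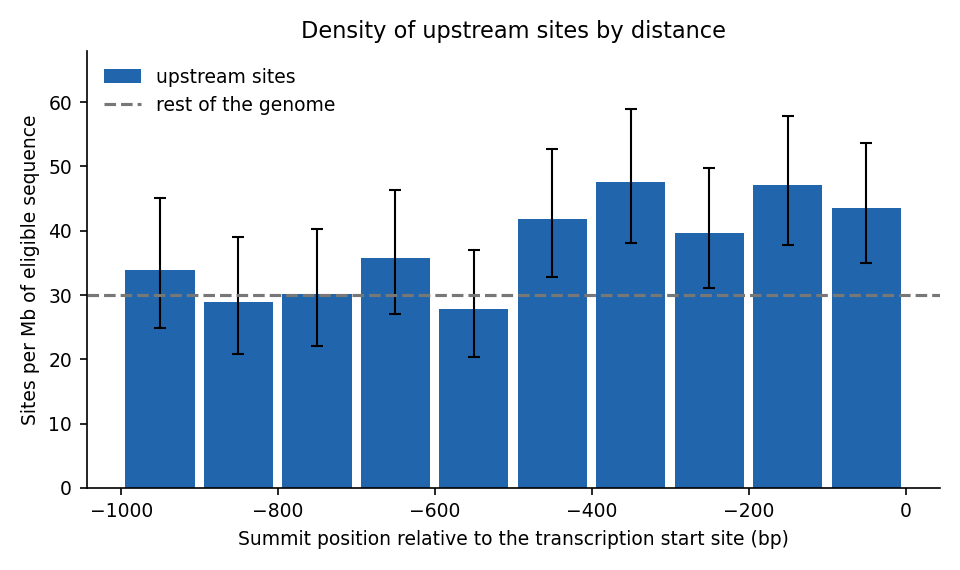
Upstream sites per Mb of sequence that meets the position rule (vertical) in 100 bp bins before the TSS (horizontal, bp, with the TSS at 0). Error bars are 95% exact Poisson intervals and the dashed line is the rest of the genome at 29.98 per Mb; the 5 bins nearest the TSS stand at 39.6 to 47.6.

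The closest and farthest sites show what the limits of the rule divide. The nearest summits lay 1 bp before the TSS, at W01H2.2 (signal 155) and acs-13 (117). They were followed by Y39B6A.43 (352) and xbp-1, a factor of the unfolded protein response (161), both at 6 bp, and hst-2 (163) at 8 bp. The farthest were ech-2 at 1000 bp (171), unc-44 at 998 bp (124), F21F3.6 at 997 bp (155), Y40A1A.3 at 994 bp (158) and dhs-8 at 991 bp (463). Just outside, the summits at Y43F8C.3, ubc-3 and hoe-1 lay on the TSS (184, 128 and 120), and those of saeg-1, R10E9.2 and gsp-1 at 1001, 1003 and 1009 bp (42.9, 116 and 111). In all, 941 summits stood upstream of their nearest TSS within 1000 bp. Of these, 194 lay between divergent genes and 100 near a small RNA gene. The narrowest divergent gap kept was 2006 bp, at Y82E9BR.3 (158), and the widest left out was 1922 bp, at ZK484.6 and daf-19 (124 and 178). The member nearest a small RNA gene was F37F2.2 at 255 bp (199), and W06H8.6 was left out at 194 bp (276).

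Not every upstream site lay between genes. The summit was outside all protein-coding genes at 425 sites (65.7%), of which 63 were in a noncoding gene and 362 (56.0%) in no gene at all. Another 143 (22.1%) lay inside the gene itself, before a TSS of a shorter transcript, and 31.9% of all annotated TSSs are internal in this way. The other 79 (12.2%) lay inside a different protein-coding gene. The median signal was 147 (140.7 to 155) outside protein-coding genes, 133 (127 to 147) inside the same gene and 125 (121 to 130.4) inside another. The share in both replicate lists was 35.8% outside protein-coding genes, 25.2% inside the same gene and 15.2% inside another. By part of the gene, 147 summits were in an intron, 53 in a coding exon and 22 in a UTR. Among all series peaks 23.2% of summits were in a coding exon, against 8.19% of the upstream sites.

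Genes with an upstream site had more free sequence before them. For the 488 genes with a site before their first TSS, the gap to the next gene upstream had a median of 2030.5 bp, against 1140 bp for the 15950 genes with sequence that meets the rule. A neighbour on the same strand within 500 bp, the spacing typical of operons, was present for 20.3% of these genes, against 25.4%. A longer gap gives more eligible sequence, so part of this follows from the rule. Genes named with a letter symbol made up 68.3% of the genes with a site, against 54.6% of all protein-coding genes.

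The X chromosome held the most upstream sites for its size. It had 153 sites, at 54.8 (46.5 to 64.2) per Mb of eligible sequence, in 5.24% of its genes, with a median signal of 151. Chromosome I followed with 51.0 (42.3 to 60.9) per Mb and chromosome III with 43.999 (35.5 to 53.96). Chromosome II had 37.9 (31.0 to 45.9) and chromosome IV 29.9 (23.9 to 36.9). Chromosome V, which carries large families of chemoreceptor genes, had the fewest, at 22.6 (18.2 to 27.7), in 1.76% of its genes. The intervals of chromosomes next to each other in this order overlap, and that of X lies above those of II, IV and V.

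Of 34 gene lists, 10 cover housekeeping functions, and 6 of these stood above the 3.04% of all protein-coding genes. Among large ribosomal subunit genes, 5 of 48 had an upstream site (10.4%, 4.53 to 22.2): rpl-3, rpl-35, rpl-24.2 (241), rpl-14 (204) and rpl-41.2 (203). All 5 were in both replicate lists. Among small subunit genes, 3 of 31 did (9.68%), namely rps-24 (319), rps-28 (299.9) and rps-11 (119). The respiratory chain list had 5 of 39 genes (12.8%, 5.60 to 26.7), led by cox-5A (461) and the cytochrome c gene cyc-2.1 (243). Translation factors had 6 of 69 (8.70%, 4.05 to 17.7), led by the elongation factor gene eef-1A.2 (269). For the proton pump and vacuolar sorting list it was 5 of 51 (9.80%, 4.26 to 20.98), with vps-39 (324), the pump subunit genes vha-12 (269) and vha-13 (259), vps-37 (171) and vps-36 (139). Chaperones had 4 of 59 (6.78%, 2.67 to 16.2), led by hsp-1, the constitutive HSP70, at 366, and their interval includes 3.04%. The other 4 lists stood below 3.04%, and their intervals also include it. They had 1 of 33 proteasome genes (rpn-11, 142, 3.03%, 0.537 to 15.3), 1 of 70 mitochondrial ribosomal genes (mrpl-28, 173, 1.43%, 0.253 to 7.66), 1 of 66 trafficking genes (arf-1, 262, 1.52%, 0.268 to 8.10) and 0 of 43 splicing genes (up to 8.20%). In the shorter lists of single replicates, 293 protein-coding genes (1.47%) had an upstream site in replicate 1 and 307 (1.54%) in replicate 2. The large subunit genes then numbered 6 and 7, the respiratory chain genes 2 and 3, the translation factors 2 and 5, the proton pump and sorting genes 4 and 3 and the chaperones 3 and 2, in the lists of replicate 1 and replicate 2.

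Of 23 heterochronic genes, which set the order of larval cell fates, 7 had an upstream site (30.4%, 15.6 to 50.9), with 9 sites. The interval overlaps those of most lists above 3.04%, among them the respiratory chain, ribosomal, lin, unc, egl and muscle lists. Per Mb of eligible sequence the timing genes had 212 sites (97.1 to 403), against 315 (102 to 734) for the respiratory chain and 261 (84.8 to 609) for the large ribosomal subunit. The strongest was that of lin-66 (signal 246). Next came lin-28, an RNA-binding protein that blocks let-7 microRNA processing (218, at 45 bp), and ain-1, of the microRNA silencing complex (181 and 171). The Argonaute gene alg-1 had 2 sites (162 and 137), and dre-1, an F-box protein, 1 (149). The sites of lin-14, the transcription factor of early larval fates (126, at 53 bp), and of lin-42, the worm Period (125, at 586 bp), were near the lower quartile. Of these 9 sites, 2 were in both replicate lists, 4 in 1 list and 3 in neither. By the list of either replicate alone, 3 of the 23 genes had a site. Across the genome, 9 of 47 lin genes had a site (19.1%, 10.4 to 32.5), 5 of them outside the timing list: lin-59 (275), lin-23 (142), lin-40 (134), lin-13 (122) and lin-15B (112). The lin genes with a site numbered 3 by the replicate 1 list and 4 by that of replicate 2.

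Other lists of worm biology gave mixed shares. Of 94 unc genes, named for uncoordinated movement, 14 had a site (14.9%, 9.08 to 23.5). Of their 15 sites, 3 were in both replicate lists, and by single lists 4 genes had a site in replicate 1 and 11 in replicate 2. They were led by unc-115, an actin-binding protein of axon guidance (346), unc-108, the worm Rab2 (259 and 208), and unc-85, a histone chaperone (223). Of 26 egl genes, with the tagged gene left out, 4 had a site (15.4%, 6.15 to 33.5): egl-30, the Gq alpha subunit (428), egl-27 (169), egl-44 (108) and egl-4 (97.9), and 2 had one by the list of either replicate alone. Muscle genes had 4 of 34 (11.8%, 4.67 to 26.6), with actin act-4 (221 and 159), the cofilin gene unc-60 (186), the myosin heavy chain gene unc-54 (136) and actin act-2 (125). By single lists, 1 muscle gene had a site in replicate 1 and 4 in replicate 2. In the HSN neuron list, 3 of 32 genes (9.38%, 3.24 to 24.2) had a site, namely egl-27, the zinc finger gene ham-2 (131) and the TEAD factor egl-44, and 2 did by the replicate 1 list and 1 by that of replicate 2. Per Mb of eligible sequence the unc genes had 77.6 sites (43.4 to 128) and the egl genes 82.7 (22.5 to 212). The muscle genes had 117 (37.99 to 273) and the HSN list 75.3 (15.5 to 220). Over all genes it was 38.3 per Mb, which the egl, muscle and HSN intervals include. Of the Wnt and Hox genes, 2 of 36 did (5.56%, 1.54 to 18.1), the kinase gene lit-1 (198) and the planar polarity gene vang-1 (133), and 1 did by either single list. Of 25 bHLH genes, 2 had a site: hlh-30, the worm TFEB (168 and 140.2), and hlh-11 (156). The tagged gene egl-43 is in none of the lists, but has an upstream site itself, 60 bp before an internal TSS, with a signal of 147 (82.7 in replicate 1 and 60.9 in replicate 2). Among the other anchor cell genes no upstream site of this kind was found (0 of 21, Wilson interval up to 15.5%), nor in the Notch list (0 of 33, up to 10.4%).

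By share of genes, the remaining lists, among them several large families, stood near or below all genes. Chemoreceptor genes had 5 of 1310 (0.382%, 0.163 to 0.890), with signals from 113 to 161. None of these sites was in both replicate lists, and the single lists gave 0 genes in replicate 1 and 3 in replicate 2. Per Mb of their eligible sequence this was 4.89 sites (1.59 to 11.4), against 38.3 over all genes. F-box genes had 2 of 322 (0.621%, 0.170 to 2.24), C-type lectins 1 of 240 (0.417%, 0.0736 to 2.32) and the potassium channels 0 of 72 (up to 5.07%). Collagens had 3 of 174 (1.72%, 0.588 to 4.95), and 0 by either single replicate list. Cytochrome P450, UGT and GST genes had 2 of 185 (1.08%, 0.297 to 3.86), hedgehog-related genes 1 of 85 (1.18%, 0.208 to 6.37) and ligand-gated channels 1 of 100 (1.00%, 0.177 to 5.45), so these 4 intervals include 3.04%. Nuclear hormone receptors, at 9 of 269 (3.35%, 1.77 to 6.24), and neuropeptide and insulin genes, at 4 of 143 (2.80%), were near the 3.04% of all genes, and the receptors numbered 2 by the replicate 1 list and 4 by that of replicate 2. The strongest of these were nhr-48 (279) and the insulin gene ins-39 (453). Histone genes had 2 of 81 (2.47%), his-37 (385) and his-24 (146). Only 17 of the 81 had sequence that meets the rule, and per Mb of it this was 153 sites (18.5 to 553). Homeobox genes had 1 of 63 (1.59%), ceh-38 (135). The sperm list had 1 of 113 (0.885%), the strong nspc-17. The cell cycle list had 2 of 54 (3.70%), cdc-48.1 (395) and mcm-3AP (179), which matched by name and are not cyclins or kinases of the cycle. Lists share genes, and the number of eligible genes and bases differs among them, so their shares are not independent.

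**Figure D4:**
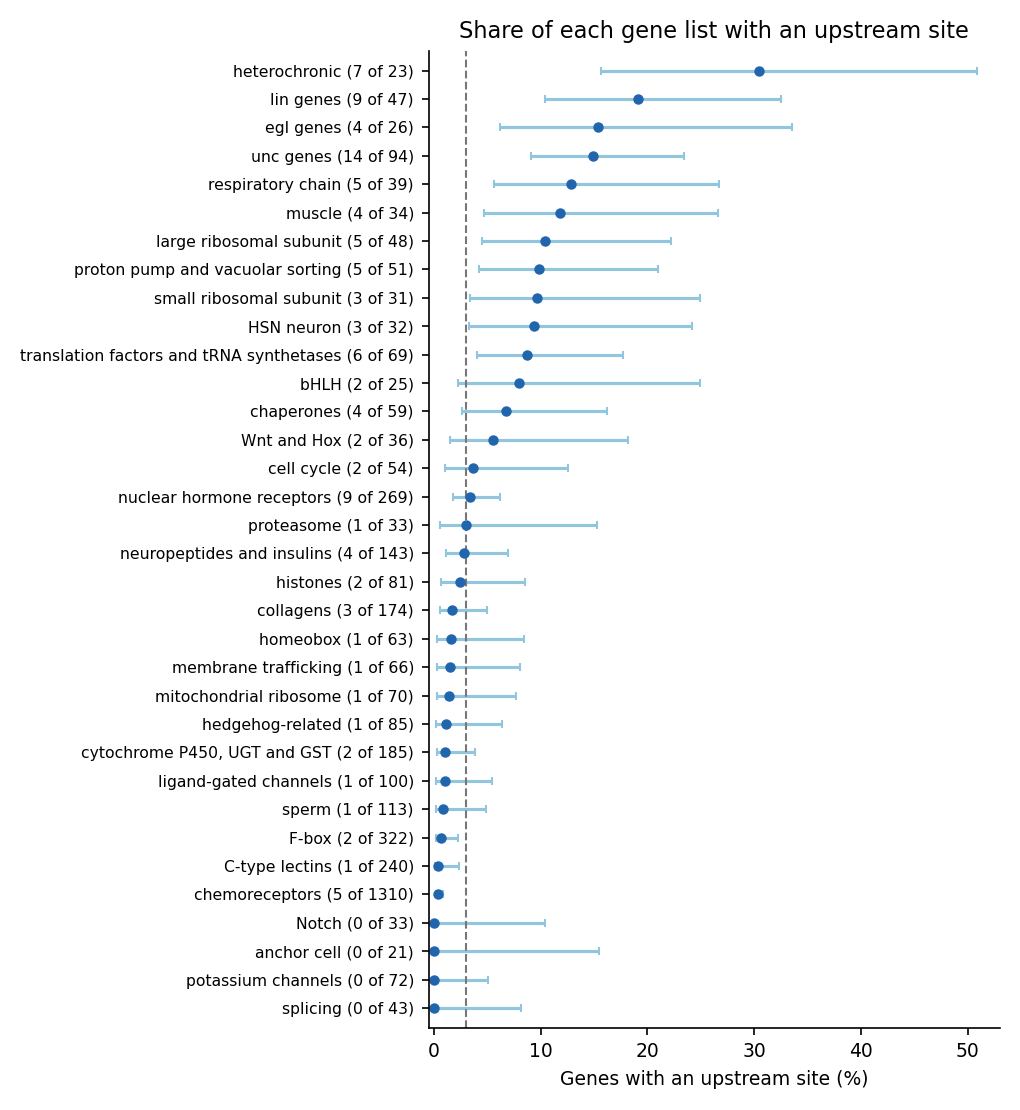
Share of the genes of each of the 34 lists that have an upstream site (horizontal, percent), with 95% Wilson intervals; numbers in brackets are genes with a site of all genes in the list, and the dashed line is 3.04%, all protein-coding genes. The heterochronic list is at the top with 7 of 23, and the chemoreceptors, with 5 of 1310, lie near 0.

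In 38 genes there was more than 1 upstream site, 37 with 2 and pbrm-1, of a chromatin remodelling complex, with 3. Of these genes, 19 have 1 annotated TSS and 19 have several. In 10 of them the sites overlapped each other, and in the other 28 they did not. The highest signals were those of eel-1 (563, at 370 and 796 bp) and pro-1 (333, at 105 and 833 bp). They were followed by K11D2.4 (312) and mnk-1 (310.0). Sites far apart before 1 TSS were seen at Y69A2AR.31 (982 and 306 bp) and at lido-7 (928 and 255 bp).

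The summits were richer in G and C than the sequence around them. Within 50 bp of the summit the median GC content was 52.5% (quartiles 48.5 and 57.4), against 34.7% in windows 300 bp to either side. At 626 of 647 sites (96.8%, 95.1 to 97.9) the summit window had more GC than the mean of its flanks. Background windows were placed before 13295 genes without an upstream site, at the same distances, and had a median of 33.7%. A GC content of 50% or more was found in 429 sites (66.3%), against 435 background windows (3.27%). The strongest 216 sites had a median of 54.5% (53.5 to 56.4) and the weakest 216 sites 51.5% (51.5 to 53.5). The divergent and downstream sites each had a median of 53.5%, close to that of the upstream sites. The GC-rich stretch was wider at upstream sites than at divergent ones, and about as wide as at the sites just downstream of a TSS. At 100 bp from the summit, mean GC was 44.8% and 45.4% on the far and near side of the upstream sites, against 38.5% and 37.4% at divergent sites and 45.2% and 47.95% at downstream ones. For upstream sites with the summit in no gene it was 43.6% and 43.7%. This difference in width was not tested.

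**Figure D5:**
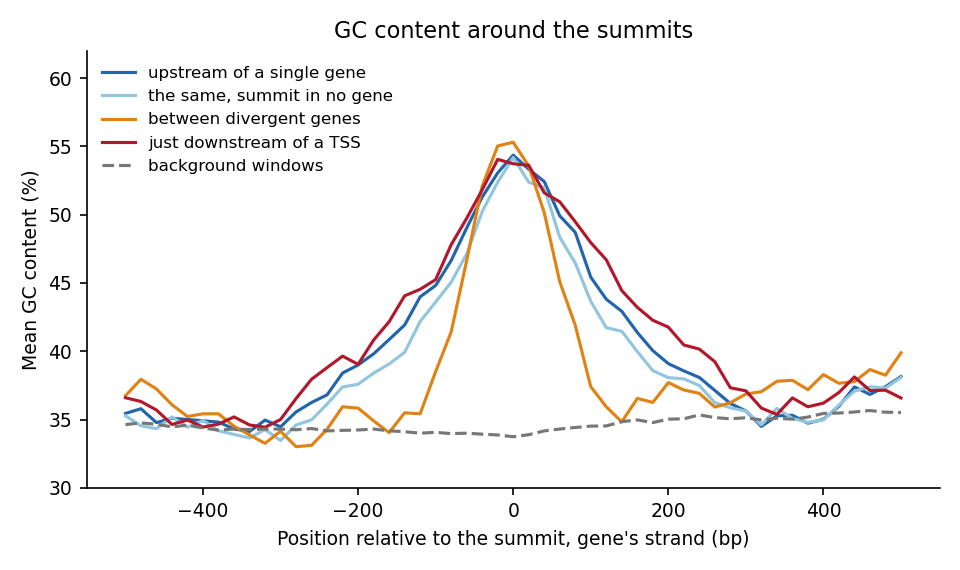
Mean GC content (vertical, percent) in windows of 21 bp against position relative to the summit (horizontal, bp, on the gene's strand, with the gene to the right). Upstream sites peak at 54.4%, divergent sites at 55.3% and downstream sites at 54.05%, and background windows stay near 34%; the upstream and downstream curves are wider than the divergent one.

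Words of known factors were counted within 50 bp of the summit, on both strands. GATAAG, the core of GATA factor sites, was in 1.08% of sites (0.525 to 2.22), against 4.83% of background windows. AAGATAA, part of the site known for the first finger domain of mammalian EVI1, was in 0.618%, against 2.50%. These words can overlap. GAAGATG, known for its second domain, was in 1.70% (0.952 to 3.02), against 1.65%. In windows of at least 50% GC, GATAAG was in 1.17% of sites against 3.68% of background windows, AAGATAA in 0.233% against 0.460% and GAAGATG in 1.17% against 2.53%. TATAAA was in 2.16% of sites, against 13.4% of all background windows. TGANTCA, the AP-1 site, was in 1.39%, against 3.32%, and the E-box CANNTG in 34.5%, against 30.9%. CACGTG, a palindromic form of the E-box, was in 2.32%, against 1.67%, the splice acceptor word TTTCAG in 6.18%, against 18.04%, and the run TTTTTTTT in 2.01%, against 13.1%. In windows of at least 50% GC most of these gaps were small or ran the other way. CANNTG was then in 33.3% of sites, against 35.4%, CACGTG in 1.86%, against 4.60%, TTTCAG in 3.73%, against 3.91%, TGANTCA in 1.40%, against 1.61%, and TATAAA in 0.699%, against 2.53%.

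GC-rich words were more frequent at the summits. CTGCGTC was in 54 sites (8.35%, 6.45 to 10.7), against 1.04% of background windows and 1.24% and 0.773% of the flanks away from and toward the gene. In windows of at least 50% GC it was in 10.5% (7.93 to 13.7) of sites and 6.21% (4.30 to 8.88) of background windows, and these intervals overlap. The overlapping word GAGACGC was in 67 sites (10.4%, 8.24 to 12.9), against 1.04%, and in GC-rich windows in 12.8% of sites, against 5.98%. In 47 sites both were present. The share with either was 17.6% (13.1 to 23.2) among the strongest 216 sites and 8.33% (5.34 to 12.8) among the weakest 216. The 74 sites with either had a median signal of 169 (142 to 190.4), and the 573 without had 138 (134 to 143). Since GAGACGC was chosen from these same sites, both splits by either word are only descriptions. For CTGCGTC alone the share was 13.0% among the strongest 216 sites and 5.56% among the weakest 216. That word was on a list chosen with earlier results of these data known, so its excess and this split are also only descriptions. The strongest with either were cnk-1, epn-1, Y39B6A.43 and unc-115. GAGAGA was in 21.5% (18.5 to 24.8) of sites, against 6.29%, and the repeat GCGCGC in 11.4% (9.21 to 14.1), against 0.654%. CCCGCCC was in 5.10% (3.65 to 7.08), against 0.496%. The repeat and CCCGCCC, like GAGACGC, were chosen after the words at the summits had been counted. Their excess over background is raised by that choice and is only a description. GAGAGA was on the list of words, which was chosen with earlier results of these data known. In windows of at least 50% GC the gaps of all these words were smaller. GAGAGA was then in 25.4% (21.5 to 29.7) of sites, against 16.3% (13.1 to 20.1), GCGCGC in 13.8% (10.8 to 17.3), against 5.29% (3.55 to 7.81), and CCCGCCC in 6.29% (4.36 to 9.002), against 3.22% (1.93 to 5.33), where the intervals overlap. Sites between divergent genes had shares close to those of the upstream sites. They were 8.76% for CTGCGTC, 9.79% for GAGACGC, 24.2% for GAGAGA, 12.4% for GCGCGC and 6.19% for CCCGCCC. Just downstream of a TSS the shares were lower, at 2.77%, 3.27%, 9.07%, 4.53% and 1.26% in the same order.

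The other words marked in the printed windows were chosen with the strong sites in view, so their place at strong sites follows from the choice and is given only as a description. AAACACGC was in 15 sites (2.32%, 1.41 to 3.79), against 0.308% of background windows. These 15 had a median signal of 219 and included rpl-3, rpl-35, serp-1.1, cox-5A and cdc-48.1, but none of the weakest 216 sites. AGTGTGCG was in 22 sites (3.40%, 2.26 to 5.09), against 0.128%, with a median signal of 186. ACCGTA was in 20 sites (3.09%, 2.01 to 4.73), near its 2.91% in background windows, with a median signal of 239. At sites between divergent genes ACCGTA was in 18.6%. AAACACGC and ACCGTA came together at rpl-3, serp-1.1, cox-5A and tmed-10. GTTCGANNC, the B box of tRNA genes, was in 13 sites (2.01%, 1.18 to 3.41), against 0.542%, led by dhs-8. A match is only a run of letters and does not show that a factor bound there, and the shares and signals of words chosen after counting are raised by the choice.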

How the data were processed

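ChIP-seq was done on 2 biological replicates of 1 group. The authors deposited peak lists on ce11, the same assembly as WBcel235, per the file headers and labels. Each peak has a signal value and a score, which the authors deposited; the signal is the authors' own. Its normalisation, the aligner and the calling software remain not given in the sources used here. A score of 830 was the lowest in the series list. The deposited lists hold 3146 series, 3024 conservative, 1532 replicate 1 and 1621 replicate 2 thresholded peaks, and 65641, 69945 and 64499 ranked peaks for the series, replicate 1 and replicate 2. They hold no read counts, so no count test was possible and the depth is unknown.

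Summits were placed against the Ensembl 115 annotation, with every protein-coding transcript start as a TSS. Upstream sites were chosen by the position rule alone. The eligible sequence is every base at which a summit would meet the rule. Replicate peaks were matched by an overlap of 1 bp. Shares carry 95% Wilson intervals, medians order-statistic intervals and densities exact Poisson intervals. GC and words were read in 101 bp windows. The rule and the word search were tested on simulated data. Named sites are the 15 strongest, the 3 strongest of each list, the 5 closest and 5 farthest, the 5 largest and 5 smallest replicate ratios, genes with more than 1 site and all members of the anchor cell, HSN, heterochronic, Notch and Wnt lists. The rule, lists and 12 of the 18 words were chosen with earlier results of these data known, and 6 words after these sites had been examined. Python 3.11.15, numpy 2.4.6, pandas 2.3.3, scipy 1.17.1 and matplotlib 3.10.9 were used.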

Additional observations from a re-analysis of the deposited data

How the results depend on the processing

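No paired analysis was possible because both samples belong to 1 group. With peaks at or above the median signal alone, 325 sites in 315 genes remained, 75.4% and 79.1% of them in the replicate 1 and replicate 2 lists, and CTGCGTC was in 10.8%. Using 1 replicate list at a time gave 311 to 322 sites in 293 to 307 genes, a median signal of 95.5 to 100.6 on that list's own scale, a median distance of 352 to 386 bp, a GC content of 53.5% to 54.5% and CTGCGTC in 10.9% to 11.9%. A limit of 500 bp gave 409 sites in 399 genes, and 2000 bp a median distance of 627 bp. With no small RNA gene left out the median signal was 146. Against the ranked lists of replicates 1 and 2, 98.9% and 98.6% of sites had a counterpart. In windows of 100 bp to either side, CTGCGTC was in 14.2%, GATAAG in 2.94%, and GC was 50.7%. The replicate correlation was 0.604 as Pearson on the log2 scale. The cause of these shifts was not tested, apart from the shorter lists, narrower limits and wider windows themselves. Of the main results under the alternatives, 40 stayed within their interval or within 1.5 times the count and 25 moved. Directions were not compared under each alternative, apart from the GC-rich windows. There CANNTG (33.3% against 35.4%), CACGTG (1.86% against 4.60%), GAAGATG (1.17% against 2.53%) and ACCGTA (3.26% against 4.37%) turned from higher to lower at sites. The 3 alternatives added after the data were seen (GC-rich windows, summits in no gene, overlapping peaks counted once) moved none of the main results. For words this compares the share at sites alone, not the gap to background. In GC-rich windows CTGCGTC was in 10.5% of sites and 6.21% of background windows, with overlapping intervals. In all windows it was in 8.35% and 1.04%. Of the values for single lists and words, 198 stayed and 94 moved. With no small RNA gene left out, 4 ligand-gated channel genes had a site in place of 1, 5 cytochrome P450, UGT and GST genes in place of 2, and 2 proteasome genes in place of 1. Depth is unknown, so a weak site cannot be told apart from one missed.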
